A study of Mus musculus with 6 samples.

Results

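The transcripts of mast cells, basophils and eosinophils were examined in hearts on day 7 after myocardial infarction (MI) through 10 genes, chosen by name: *Cpa3*, *Cma1*, *Mcpt4*, *Tpsb2*, *Kit*, *Fcer1a*, *Ms4a2*, *Mcpt8*, *Prg2* and *Siglecf*. All 10 were found among the 54532 genes of the deposited table. Bulk RNA was sequenced from 3 wild-type (WT) C57BL/6 mice (C57BL/6J in the study's methods) and 3 mice on that background that lacked the receptor of thymic stromal lymphopoietin (TSLPR knockout, *Crlf2*-/-). Both groups had undergone ligation of the left anterior descending coronary artery (LAD), and each library came from 1 mouse. All hearts were infarcted, so the comparison was between genotypes within infarcted tissue, and the deletion was not limited to one cell type. Of the 10 genes, 5 were too low to measure and 0 of the other 5 passed the thresholds for a difference between genotypes.

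Mast cells, basophils and eosinophils are rare leukocytes of allergic and type 2 immune responses. Mast cells live in tissue, the heart included, depend on stem cell factor signalling through KIT, and store proteases, histamine and heparin in granules that they release when IgE bound to its high-affinity receptor is cross-linked. Basophils and eosinophils circulate in blood and enter inflamed tissue, where basophils carry the same IgE receptor and eosinophils release toxic granule proteins. TSLP, an epithelial and stromal cytokine, can act on all of these cells through a receptor made of CRLF2 and IL7R.

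Of the 10 genes, *Cpa3*, *Cma1* and *Mcpt4* encode proteases stored in the granules of connective tissue mast cells and were the mast cell granule genes with enough fragments to test. Their upstream sequences are shown because promoter sequence contributes to the cell types in which a gene is transcribed. Each run is the 250 bases before the start site, written 5′ to 3′ on the strand of the gene, from RefSeq on GRCm38.p6. Capitals mark 2 kinds of motif: AGATAA or TGATAA, searched on both strands and bound by GATA factors, and TATAAA, searched on the strand of the gene only. The windows lie on the minus strand at chr3:20242182-20242431 for *Cpa3*, chr14:56062311-56062560 for *Mcpt4* and chr14:55944676-55944925 for *Cma1*.

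Cpa3: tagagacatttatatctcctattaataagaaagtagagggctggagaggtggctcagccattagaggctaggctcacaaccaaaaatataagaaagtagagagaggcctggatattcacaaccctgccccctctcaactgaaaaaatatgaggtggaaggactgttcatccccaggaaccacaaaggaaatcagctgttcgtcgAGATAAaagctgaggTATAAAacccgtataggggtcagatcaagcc

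Mcpt4: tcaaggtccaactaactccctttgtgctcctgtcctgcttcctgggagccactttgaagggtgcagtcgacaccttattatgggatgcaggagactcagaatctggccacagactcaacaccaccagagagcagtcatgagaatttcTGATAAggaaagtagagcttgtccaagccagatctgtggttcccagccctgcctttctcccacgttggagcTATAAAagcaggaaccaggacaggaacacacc

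Cma1: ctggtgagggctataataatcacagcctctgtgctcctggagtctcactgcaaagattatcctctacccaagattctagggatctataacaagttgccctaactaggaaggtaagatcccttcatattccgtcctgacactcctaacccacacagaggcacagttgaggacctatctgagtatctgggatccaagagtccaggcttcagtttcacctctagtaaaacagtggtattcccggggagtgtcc

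The *Cpa3* window held AGATAA 46 bases and TATAAA 31 bases before the start site, and the *Mcpt4* window held TGATAA 103 bases and TATAAA 32 bases before it. The *Cma1* window held neither set of letters. Over windows that reached 50 bases past the start site, 5 of the 8 genes with a RefSeq promoter here held a GATA motif (*Cpa3*, *Mcpt4*, *Fcer1a*, *Ms4a2* and *Siglecf*), against 18.6% of 32851 promoters. TATAAA was present in 3 of the 8 (*Cpa3*, *Mcpt4* and *Fcer1a*), against 8.32% of these promoters. A match gives letters only and does not show that a factor binds there.

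Expression is given as fragments, the read pairs assigned to a gene, and as FPKM, which scales fragments to gene length and library size and was here scaled once more with TMM factors (trimmed mean of M values). Library depth, counted on the listed genes, was 18508646 to 19682428 fragments. A gene was taken as too low to measure unless at least 3 libraries had at least 10 fragments and the total reached 15, which 15520 genes of the table did. Differences were tested with limma on log2(FPKM + 0.1), and a call needed both an adjusted p (Benjamini-Hochberg) no larger than 0.05 and a log2 fold change of 0.5 or more in size. Of all tested genes 0.0129% were called, 2 in number. Of the 5 tested genes among the 10, limma and voom each called 0, and 1 (*Mcpt4*) had an unadjusted p under 0.05 in both. *Crlf2*, the deleted receptor chain, had 917, 813 and 707 fragments among WT hearts against 437, 651 and 667 among *Crlf2*-/- hearts. The groups did not overlap. None of the *Crlf2*-/- libraries was free of them, and a total over the gene cannot tell whether they came from exons outside the deleted part. The heart label was checked with 6 cardiomyocyte genes, which were all detected in each library, with *Actc1* the most abundant at 1088 ± 359 FPKM in WT and 669.7 ± 221.4 FPKM in *Crlf2*-/- hearts (SD, n = 3 each). All 6 had a log2 fold change below 0 (median -0.93), as did 50.2% of all tested genes. Limma called 0 of the 6, and 2 (*Myl2* at -1.34 and *Tnni3* at -1.34) had an unadjusted p under 0.05. The share of all tested genes that were lower in *Crlf2*-/- hearts at that p was 3.25%. The summed level of the 6 cardiomyocyte genes was 919 to 1760 FPKM in WT and 602 to 1200 FPKM in *Crlf2*-/- hearts. The part of this in the values below was not tested.

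Individual libraries also stood apart in tissue markers. WT replicate 3 had 188 fragments of the lung surfactant gene *Sftpc*, against 2 and 2 in the other WT hearts and 3, 5 and 8 in *Crlf2*-/- hearts. *Crlf2*-/- replicate 3 had 12 fragments of *Sftpb* and 11 of *Scgb1a1*, which are lung genes too. WT replicate 3 had 43 and 0 of these, and the remaining libraries at most 3 and 1. *Crlf2*-/- replicate 1 had the most fragments of 4 mesothelial genes, including 565 of *Upk3b* against 99 to 384 in the other 5 libraries and 500 of *Wt1* against 145 to 371. Summed over all 7 genes of the mesothelial and adipose list, FPKM ranged from 14.1 to 76.5 in WT and from 11.9 to 41.7 in *Crlf2*-/- hearts. Values without these libraries are given below where they bear on a gene.

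**Figure D1:**
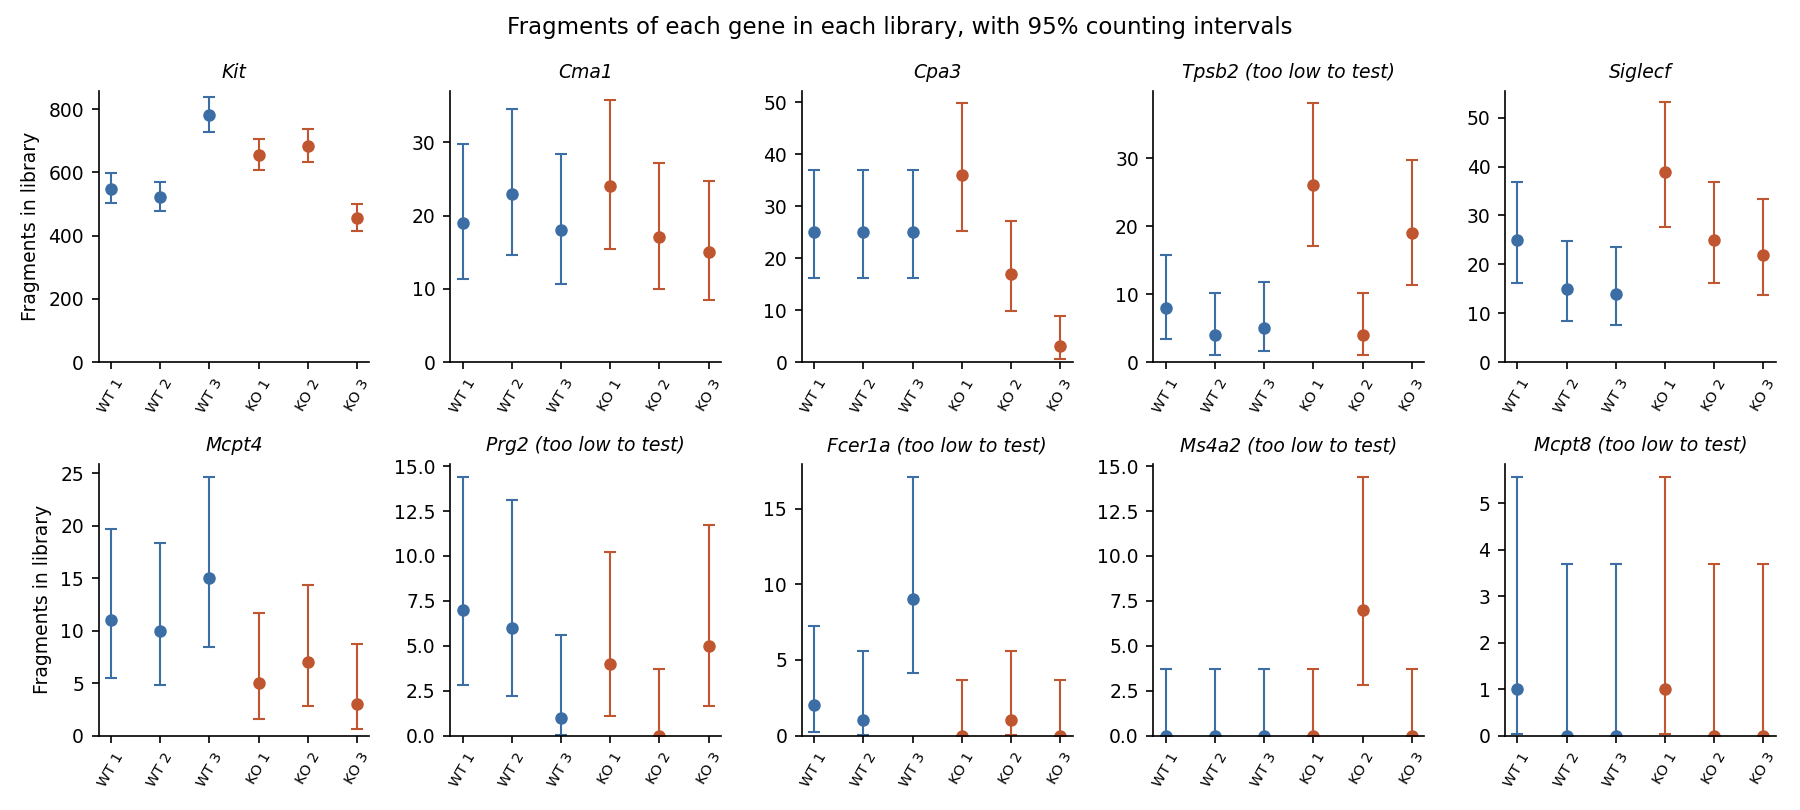
Fragments of each of the 10 genes in each library (vertical axes, number of fragments, each starting at 0 with its own scale) for WT replicates 1 to 3 (blue) and *Crlf2*-/- replicates 1 to 3 (KO, orange). Points are single libraries and bars are exact 95% Poisson intervals, which cover counting error only. *Kit* stands at 457 to 781 fragments, while the other genes reach at most 39.

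Carboxypeptidase A3, encoded by *Cpa3* (ENSMUSG00000001865, chromosome 3 from 20215620 to 20242181, minus strand), is a granule exopeptidase of mast cells. It had 25, 25 and 25 fragments among WT hearts against 36, 17 and 3 among *Crlf2*-/- hearts. The WT libraries were alike, whereas the *Crlf2*-/- libraries lay both above and below them. In bulk tissue, fewer mast cells and less RNA per mast cell cannot be told apart, here and for the genes that follow. In FPKM this was 0.741 ± 0.0198 in WT and 0.548 ± 0.499 in *Crlf2*-/- hearts (SD, n = 3 each). The log2 fold change of *Cpa3* was -0.74 (SE 0.58, 95% interval -2.07 to 0.59, adjusted p = 0.947, limma with Benjamini-Hochberg adjustment). Single libraries moved this value in opposite directions, since the log2 fold change was -0.03 without *Crlf2*-/- replicate 3 and -1.35 without *Crlf2*-/- replicate 1. Equal counts of 25 in WT hearts do not make that group more precise than counting allows, because each of them has a Poisson 95% interval of 16.2 to 36.9 fragments.

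Chymase 1, encoded by *Cma1* (ENSMUSG00000022225, chromosome 14 from 55941451 to 55944675, minus strand), is a granule serine protease whose mouse form is stored together with carboxypeptidase A3. It had 19, 23 and 18 fragments among WT hearts against 24, 17 and 15 among *Crlf2*-/- hearts. These ranges overlapped. Its mean level was 0.826 ± 0.118 FPKM in WT and 0.760 ± 0.211 FPKM in *Crlf2*-/- hearts (SD, n = 3 each). The log2 fold change of -0.13 (SE 0.23, adjusted p = 0.996, limma with Benjamini-Hochberg adjustment) had a 95% interval of -0.65 to 0.40, which leaves room for a moderate change in either direction.

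Mast cell protease 4, encoded by *Mcpt4* (ENSMUSG00000061068, chromosome 14 from 56059629 to 56062313, minus strand), is the enzyme behind most chymase activity of connective tissue mast cells in mice. It had 11, 10 and 15 fragments among WT hearts against 5, 7 and 3 among *Crlf2*-/- hearts. The groups did not overlap, the *Crlf2*-/- libraries being the lower, at 0.488 ± 0.114 FPKM in WT and 0.198 ± 0.0746 FPKM in *Crlf2*-/- hearts (SD, n = 3 each). The log2 fold change was -0.99 (SE 0.27, 95% interval -1.61 to -0.37), and the exact two-sided permutation test gave p = 0.1, the smallest that 3 against 3 allows. The unadjusted p of 0.00591 became 0.374 with Benjamini-Hochberg adjustment in limma, so *Mcpt4* was not called. Among all tested genes, 3.25% were lower in *Crlf2*-/- hearts at an unadjusted p under 0.05, and 6.21% were lower there without overlap of the groups. *Mcpt4* reached 10 fragments only in the WT libraries and passed the filter through them alone, so it could be tested only because it was higher there. With a filter that ignored the groups, a mean of at least 5 fragments per library, which was chosen after the data had been seen, its adjusted p was 0.450. Of 1009 windows of 100 bases in its transcripts, 1 also occurs in *Cma2*, which was at 0 in all libraries.

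**Figure D2:**
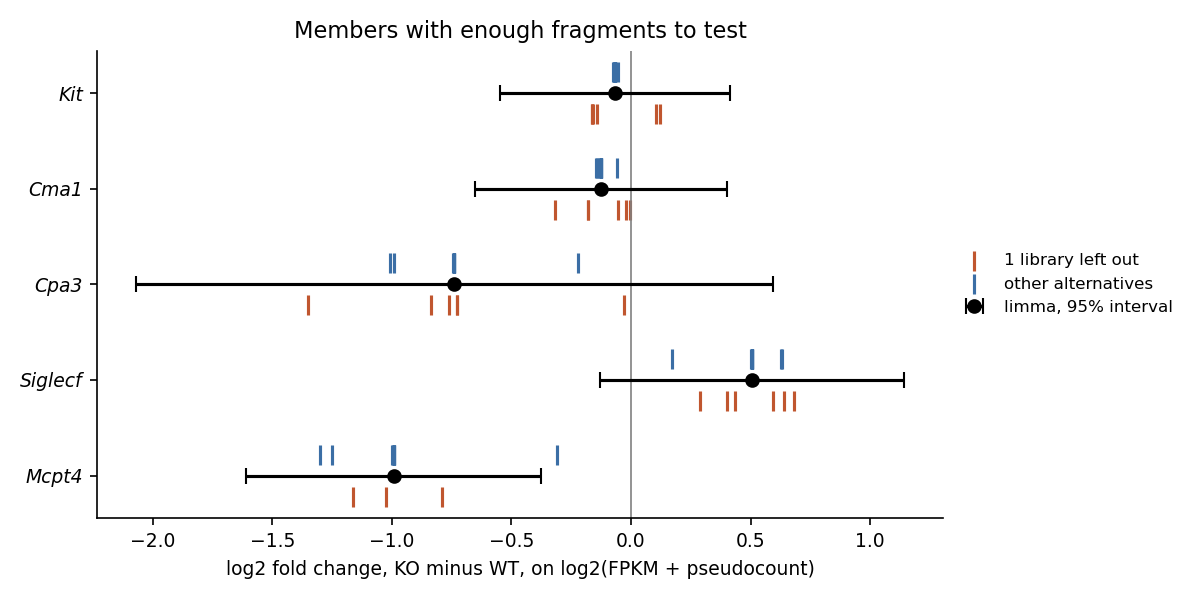
Log2 fold change of the 5 genes with enough fragments to test (horizontal axis, KO minus WT, log2(FPKM + pseudocount)), with black points and bars for limma estimates and 95% intervals. Orange ticks below each point leave out 1 library at a time and blue ticks above it are other alternatives. The intervals of *Kit*, *Cma1*, *Cpa3* and *Siglecf* include 0, and that of *Mcpt4* runs from -1.61 to -0.37.

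Tryptase beta 2, encoded by *Tpsb2* (ENSMUSG00000033825, chromosome 17 from 25366550 to 25368094, plus strand), is the main granule tryptase. It had 8, 4 and 5 fragments among WT hearts against 26, 4 and 19 among *Crlf2*-/- hearts. Replicates 1 and 3 of the *Crlf2*-/- group lay above all WT libraries, and replicate 2 did not. With only those 2 libraries at 10 fragments or more, *Tpsb2* was too low to measure by the filter used here. The filter that ignored the groups admitted it, with a log2 fold change of 0.98 and an adjusted p of 0.869 (limma with Benjamini-Hochberg adjustment). That value was 0.54 without *Crlf2*-/- replicate 1 and 1.65 without *Crlf2*-/- replicate 2, where the adjusted p was 0.346. Its neighbour *Tpsab1*, another tryptase gene, had 1, 4 and 3 fragments among WT hearts against 8, 0 and 0 among *Crlf2*-/- hearts. No 100-base window of transcript is shared between the 2 genes.

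Summed over *Cpa3*, *Cma1*, *Mcpt4* and *Tpsb2*, the count per 1000000 fragments on listed genes was 3.32, 3.34 and 3.40 in WT hearts and 4.90, 2.29 and 2.12 in *Crlf2*-/- hearts. The WT libraries lay close together at 3.35 ± 0.0443 and the *Crlf2*-/- libraries were spread around them at 3.10 ± 1.56 (SD, n = 3 each). The WT sums rested on 63, 62 and 63 fragments. As with the equal *Cpa3* counts, their closeness does not make that group more precise than counting allows, and the difference in spread was not tested. Tryptase made up 12.7%, 6.45% and 7.94% of these fragments in WT and 28.6%, 8.89% and 47.5% in *Crlf2*-/- hearts. In *Crlf2*-/- replicate 3, *Cpa3* was 16.7% of the *Cpa3* and *Cma1* fragments (3 of 18, exact 95% binomial interval 3.58% to 41.4%), against 52.1% to 58.1% in WT hearts, 36 of 60 in *Crlf2*-/- replicate 1 and 17 of 34 in replicate 2. That interval overlapped those of WT replicate 1 (41.0% to 71.7%), WT replicate 2 (37.2% to 66.7%) and *Crlf2*-/- replicate 2 (32.4% to 67.6%), and did not overlap those of WT replicate 3 (42.1% to 73.0%) and *Crlf2*-/- replicate 1 (46.5% to 72.4%). *Crlf2*-/- replicate 1, which had the highest protease sum and the most *Tpsb2*, was also the only library with fragments of *Mcpt2* (6), a protease of mucosal mast cells, and had 5 of the 6 fragments of the mast cell receptor gene *Mrgprb1*. It was the library highest in mesothelial genes, as given above, and the part of this in the protease values was not tested.

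**Figure D3:**
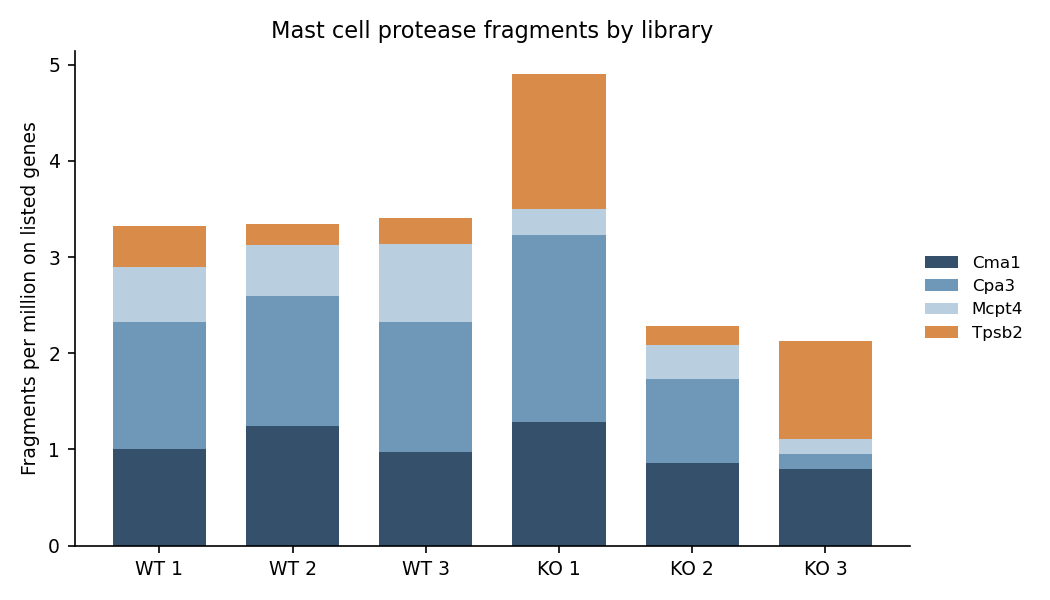
Stacked bars of mast cell protease fragments per 1000000 fragments on listed genes (vertical axis, from 0) in each library (KO is *Crlf2*-/-), with *Cma1*, *Cpa3*, *Mcpt4* and *Tpsb2* in separate colours. The 3 WT bars end between 3.32 and 3.40, and the KO bars end at 4.90, 2.29 and 2.12, with *Tpsb2* the largest segment in KO replicate 3.

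KIT, encoded by *Kit* (ENSMUSG00000005672, chromosome 5 from 75574916 to 75656722, plus strand), is the receptor for stem cell factor and is needed for mast cell survival. It was the best measured of the 10 genes, with 549, 523 and 781 fragments among WT hearts against 655, 683 and 457 among *Crlf2*-/- hearts. The groups overlapped, at 3.12 ± 0.767 FPKM in WT and 2.96 ± 0.589 FPKM in *Crlf2*-/- hearts (SD, n = 3 each). The log2 fold change of *Kit* was -0.07 (SE 0.21, 95% interval -0.55 to 0.41, adjusted p = 0.996, limma with Benjamini-Hochberg adjustment), and it was 0.12 without WT replicate 3 and 0.10 without *Crlf2*-/- replicate 3. *Kit* is used by other cells as well, including blood progenitors and melanocytes. Of the 6 melanocyte genes, *Tyr* was at 0 in all libraries and the summed level ranged from 1.39 to 1.65 FPKM in WT and from 1.41 to 1.86 FPKM in *Crlf2*-/- hearts. Of the 5 progenitor genes 2 were tested and 0 called, and their sum of 37.0 to 38.7 FPKM in WT and 27.4 to 30.4 FPKM in *Crlf2*-/- hearts came mostly from *Cd34*, which endothelial cells also express. How much of the *Kit* level belongs to mast cells was not tested.

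The high-affinity IgE receptor, FcεRI, is built from an IgE-binding alpha chain, a beta chain that amplifies the signal and a gamma chain shared with other immune receptors. The alpha chain gene *Fcer1a* (ENSMUSG00000005339, chromosome 1 from 173221284 to 173227214, minus strand) had 2, 1 and 9 fragments among WT hearts against 0, 1 and 0 among *Crlf2*-/- hearts. Most of its fragments were thus in WT replicate 3, the library with the most *Sftpc*, and the part of lung tissue in them was not tested. Without that library, 3 fragments in 2 WT libraries stood against 1 in 3 *Crlf2*-/- libraries. Dendritic cells can carry this chain too, and all 6 of their listed genes were tested, with log2 fold changes below 0 (median -0.31) and 0 called. Of these, *Cd209a* (-0.98, SE 0.25) and *Zbtb46* (-0.42, SE 0.15) had an unadjusted p under 0.05 and groups that did not overlap. Over all tested genes, 50.2% had a log2 fold change below 0. In limma 3.25% of them were lower in *Crlf2*-/- hearts at an unadjusted p under 0.05, and 6.21% were lower without overlap. The summed dendritic cell level was 13.3 to 17.0 FPKM in WT and 8.37 to 13.9 FPKM in *Crlf2*-/- hearts, and its part in the *Fcer1a* counts was not tested. The beta chain gene *Ms4a2* (ENSMUSG00000024680, chromosome 19 from 11615523 to 11623719, minus strand) had 0, 0 and 0 fragments among WT hearts against 0, 7 and 0 among *Crlf2*-/- hearts. Of 3203 windows of 100 bases in *Ms4a2* transcripts, 13 also occur in *Ms4a4b*. Both genes were too low to measure. The 7 fragments of *Ms4a2* and the 9 of *Fcer1a* lay in different libraries. By contrast the gamma chain gene *Fcer1g*, which macrophages and other myeloid cells express, had 2773 to 4333 fragments among WT hearts against 2926 to 3736 among *Crlf2*-/- hearts.

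Of 15 genes of this receptor and its signalling, 13 were tested, 0 were called in either direction, and 1 (*Lat*) had an unadjusted p under 0.05. Their median log2 fold change was -0.08, beside -0.000456 over all tested genes. *Lat*, an adaptor that T cells and mast cells use below their antigen receptors, had 105, 93 and 59 fragments among WT hearts against 33, 36 and 13 among *Crlf2*-/- hearts. These groups did not overlap, and the log2 fold change of -1.52 (SE 0.34) had an adjusted p of 0.255 (limma with Benjamini-Hochberg adjustment, 0.00197 before it). At an unadjusted p under 0.05, 3.25% of all tested genes were lower in *Crlf2*-/- hearts, and 6.21% were lower there without overlap. *Syk*, the kinase recruited by the gamma chain, had a log2 fold change of -0.28 (SE 0.13) and overlapped between groups.

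Basophil transcripts were close to the limit of detection. Mast cell protease 8, encoded by *Mcpt8* (ENSMUSG00000022157, chromosome 14 from 56082166 to 56085273, minus strand), is in spite of its name a basophil protease, and it had 1, 0 and 0 fragments among WT hearts against 1, 0 and 0 among *Crlf2*-/- hearts. A count of 0 allows up to 3 fragments, which was 0.133 FPKM of *Mcpt8* in *Crlf2*-/- replicate 3. A microRNA gene overlaps *Mcpt8* on the same strand, as another does *Cpa3*, so fragments there could be shared. *Prss34*, a second basophil protease, had 2 fragments in WT replicate 1 and 0 in the other 5 libraries. Of the 9 basophil genes in the table, 6 were too low to measure, and among the 3 tested the median log2 fold change was -0.04 and 0 were called. Those 3 were *Il4*, *Itga2* and *Gata2*, which are not restricted to basophils, and the transcription factor gene *Gata2* had 93, 128 and 137 fragments among WT hearts against 73, 150 and 147 among *Crlf2*-/- hearts. The RNA of basophils was therefore not measurable at this depth, which does not show that the cells were absent.

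Among eosinophil granule genes, counts were low as well. Major basic protein, encoded by *Prg2* (ENSMUSG00000027073, chromosome 2 from 84980461 to 84983632, plus strand), is the chief toxic protein of the eosinophil granule, and had 7, 6 and 1 fragments among WT hearts against 4, 0 and 5 among *Crlf2*-/- hearts. The groups overlapped and *Prg2* was too low to measure. The genes for 2 other granule proteins, *Epx* and *Prg3*, had at most 1 fragment in any library. *Il5ra*, the receptor chain through which IL-5 sustains eosinophils, had at most 3.

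The surface lectin gene *Siglecf* (ENSMUSG00000039013, chromosome 7 from 43351341 to 43359531, plus strand) marks eosinophils and also alveolar macrophages. It had 25, 15 and 14 fragments among WT hearts against 39, 25 and 22 among *Crlf2*-/- hearts. The groups overlapped, since WT replicate 1 equalled *Crlf2*-/- replicate 2 in fragments and exceeded replicate 3. Mean levels were 0.289 ± 0.0889 FPKM in WT and 0.456 ± 0.156 FPKM in *Crlf2*-/- hearts (SD, n = 3 each). The log2 fold change of *Siglecf* was 0.51 (SE 0.28, 95% interval -0.13 to 1.14, adjusted p = 0.862, limma with Benjamini-Hochberg adjustment), and leaving out 1 library at a time gave 0.29 to 0.68. Of the 7 lung and alveolar macrophage genes 3 were tested and 0 called, and their summed level ran from 4.57 to 15.8 FPKM in WT and from 4.70 to 10.6 FPKM in *Crlf2*-/- hearts. *Siglecf* had 14 fragments in WT replicate 3, the library with the most *Sftpc*, and 15 in WT replicate 2. The part of lung tissue in the *Siglecf* counts was not tested. *Car4*, one of the 3 tested genes of that list, had 10, 22 and 12 fragments among WT hearts against 1, 2 and 9 among *Crlf2*-/- hearts. It was lower in *Crlf2*-/- hearts without overlap, as were 6.21% of all tested genes. Like *Mcpt4*, *Car4* passed the filter through the WT libraries alone, so it could be tested only because it was higher there. Its log2 fold change was -1.26 (SE 0.40, adjusted p = 0.511, limma with Benjamini-Hochberg adjustment). *Marco* and *Chil3*, the others tested, were at -0.03 and 0.22 and overlapped between groups.

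Across all 10 eosinophil list genes, 4 were tested, 0 were called and the median log2 fold change was 0.09. *Ear2*, an eosinophil ribonuclease gene, had 16, 7 and 29 fragments among WT hearts against 7, 4 and 16 among *Crlf2*-/- hearts. Related genes share 13.9% of its 100-base windows, which makes its counts uncertain. The highest *Ear2* count of each group was in replicate 3, and these were the libraries that stood apart in lung genes. The part of lung tissue in the *Ear2* counts was not tested. *Ccr3*, the eotaxin receptor gene, had 27, 11 and 10 fragments among WT hearts against 12, 19 and 4 among *Crlf2*-/- hearts. The mean of *Siglecf* was thus the higher in *Crlf2*-/- hearts and those of *Ear2* and *Ccr3* the lower, each with overlapping groups. *Alox15*, a lipoxygenase gene of eosinophils and resident peritoneal macrophages, had 285 fragments in *Crlf2*-/- replicate 1 and 12 to 47 in the other 5 libraries. It was chosen for mention after its values were seen, because that library was also the highest in mesothelial genes.

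**Figure D4:**
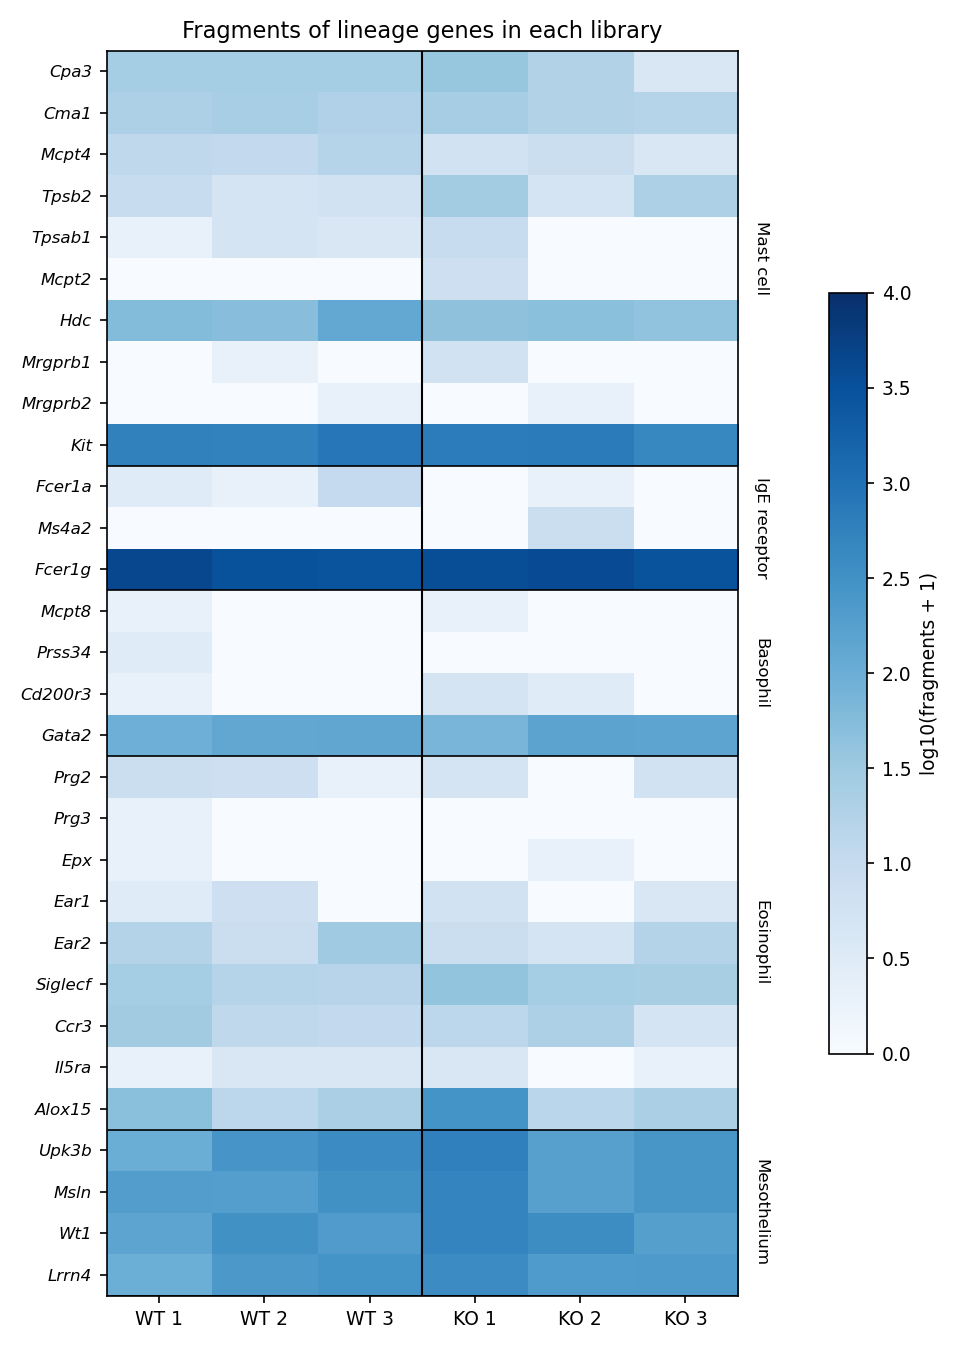
Heat map of fragments of mast cell, IgE receptor, basophil, eosinophil and mesothelial genes (rows) in each library (columns; KO is *Crlf2*-/-), coloured by log10(fragments + 1). *Kit* and *Fcer1g* are dark in all libraries and basophil and eosinophil granule genes are near white, while KO replicate 1 is darkest for *Alox15* (285 fragments) and *Upk3b* (565 fragments).

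The levels of the 10 genes, compared in FPKM and hence per length, fell in the order *Kit*, *Cma1*, *Cpa3*, *Tpsb2*, *Siglecf*, *Mcpt4*, *Prg2*, *Fcer1a*, *Ms4a2* and *Mcpt8* by their mean over the 6 libraries. *Kit* was at least 2.29 FPKM in each library and *Cma1* at most 1.00 FPKM, and this was the only pair of neighbours in the order whose ranges did not overlap. By mean FPKM *Kit* stood at percentile 43.6 of the tested genes, whereas *Cma1* stood at 18.7, *Cpa3* at 16.2 and *Mcpt4* at 9.35. These 3 proteases thus stood in the lower part of the tested genes. *Tpsb2* has a length of 1081 bases in the deposited table and of 1594 bases over its exons in GENCODE. The same fragments divided by the longer length give a mean of 0.309 FPKM in place of 0.456 FPKM, after *Siglecf* and *Mcpt4* in the order. Fragments were not counted again over the longer exons, so its place in the order with that length is not known.

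The wider list of mast cell proteases and granule genes held 17 genes, of which 9 were tested, 8 were too low and 0 were called. Its median log2 fold change was -0.11, with 6 genes below 0 and 3 above. *Hdc*, the enzyme gene for histamine synthesis, had 57, 51 and 126 fragments among WT hearts against 43, 46 and 40 among *Crlf2*-/- hearts. The *Crlf2*-/- libraries were lower without overlap of the groups, as in 6.21% of all tested genes. WT replicate 3 lay far above the other libraries, and the log2 fold change was -0.62 (SE 0.32, adjusted p = 0.828, limma with Benjamini-Hochberg adjustment). It was -0.26 without that library, the one with the most *Sftpc*, and the part of lung tissue in the *Hdc* counts was not tested. *Hpgds*, the prostaglandin D2 synthase gene of mast cells and macrophages, had its higher values in *Crlf2*-/- hearts, with 996, 573 and 1014 fragments among WT hearts against 1277, 1239 and 1170 among *Crlf2*-/- hearts. Its log2 fold change was 0.53 (SE 0.20), and the unadjusted p of 0.0327 rose to 0.691 on adjustment (limma, Benjamini-Hochberg). Among all tested genes, 3.29% had an unadjusted p under 0.05 with the higher level in *Crlf2*-/- hearts and 5.57% were higher in *Crlf2*-/- hearts without overlap.

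Mast cell receptors and regulators numbered 10 in the table, with 6 tested, 0 called and a median log2 fold change of -0.05. *Kitl*, which encodes stem cell factor, had 871 to 1384 fragments among WT hearts against 935 to 1135 among *Crlf2*-/- hearts. *Il1rl1*, the receptor gene for IL-33, had 42 to 67 fragments among WT hearts against 43 to 63 among *Crlf2*-/- hearts. Of 19 growth factors, chemoattractants and their receptors 12 were tested and 0 called, and *Crlf2* was the only one with an unadjusted p under 0.05. *Il33*, the alarmin gene, had 1356 to 2040 fragments among WT hearts against 1106 to 2120 among *Crlf2*-/- hearts. The eotaxin gene *Ccl11* had 5, 13 and 7 fragments among WT hearts against 4, 15 and 3 among *Crlf2*-/- hearts and was too low to measure, and *Il3*, *Il9* and *Csf2* were at 0 in all libraries.

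*Cma1*, *Mcpt4* and *Mcpt8* lie in a cluster of serine protease genes on chromosome 14 that also holds the granzymes of cytotoxic lymphocytes. Of its 15 genes 6 were tested, 0 were called, and 5 had an unadjusted p under 0.05 in limma, 2 lower and 3 higher in *Crlf2*-/- hearts. Among all tested genes these shares were 3.25% lower and 3.29% higher. *Mcpt4*, which passed the filter through the WT libraries alone, was among the lower ones. *Gzmb* had 94, 73 and 105 fragments among WT hearts against 37, 43 and 42 among *Crlf2*-/- hearts, a log2 fold change of -1.11 (SE 0.17, adjusted p = 0.112, limma with Benjamini-Hochberg adjustment). *Gzmc* had its higher values in *Crlf2*-/- hearts, with 22, 23 and 19 fragments among WT hearts against 36, 48 and 45 among *Crlf2*-/- hearts and a log2 fold change of 0.92 (SE 0.16, adjusted p = 0.149, same test). *Gzmd* had 10, 20 and 17 fragments among WT hearts against 37, 33 and 43 among *Crlf2*-/- hearts, and a log2 fold change of 1.17 (SE 0.26, adjusted p = 0.255, same test). The groups of *Gzmb*, *Gzmc* and *Gzmd* did not overlap, while those of *Gzme*, at a log2 fold change of 0.90 (SE 0.38), did. Over all tested genes, 6.21% were lower and 5.57% higher in *Crlf2*-/- hearts without overlap. The tested neighbours of the 2 chymase genes thus had fold changes of both signs, and *Cma1* overlapped between groups. The cluster was listed for its position and not as genes of one cell type.

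The 5 tested genes most like *Cpa3* over the 6 libraries, by Pearson's r on log2(FPKM + 0.1), were *Sfi1* (0.994), *Amz2* (0.988), *Golph3* (0.987), *Gpkow* (0.983) and *Jade1* (0.982). They were picked as the highest of the 15520 tested genes, so their r values are a description only. After the 2 libraries farthest from the median of *Cpa3* were left out, r ranged from 0.817 to 0.964 over the 4 that stayed. None of the other 9 genes was among them, and their own log2 fold changes were small, at -0.12 for *Sfi1* and -0.04 for *Amz2*.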

How the data were processed

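RNA from infarcted hearts of 3 WT and 3 TSLPR knockout mice was sequenced by the study as paired-end, poly-A selected libraries. The tissue label and the paper say heart, whereas the extraction text of the labels speaks of another tissue, and the heart label was followed. The authors aligned reads with HISAT2 2.0.5 (listed in the submitters' processing notes), counted fragments per gene and deposited FPKM with gene lengths. The processing notes list a human build beside the mouse build mm10. Positions in the table match GENCODE release 21 for mouse (GRCm38), with 53585 of 54532 genes at the same start and end, among them 9 of the 10 genes described and not *Tpsb2*. Multiplying FPKM by gene length gave whole fragments for 100% of nonzero values within 0.1 of a fragment. Depth, filters and Poisson intervals came from these fragments, and intervals cover counting error only. At under 30 fragments a gene, counting error alone is large.

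Groups came from the genotype labels. Scaled FPKM were tested as log2(FPKM + 0.1) in limma 3.58.1 under R 4.3.3, with trend and robust options, without a block, and the p-values were adjusted over 15520 genes. Fold changes on this scale understate the change of low genes. Exact permutation tests were two-sided. The replicate numbers were treated as names and not as pairs, because the correlation of deviations within the 3 numbers was -0.0161, 0.115 and 0.119. Other settings were median-of-ratios scaling, FPKM as deposited, pseudocounts of 1 and 0.01, no filter, 10 fragments in every library, voom on fragments, a replicate block, omission of haemoglobin and mitochondrial genes, omission of each library and, added after seeing the data, a filter on a mean of 5 fragments per library. The fit was tested on simulated data first.

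The 10 genes and the lists were chosen with earlier results of these data known. Beside the 10 genes, list genes were named if they were called, had an unadjusted p under 0.05 or had been set as defining partners, and the 5 genes most like *Cpa3* were named. Within marker lists the most abundant gene could be named. *Sftpc*, *Sftpb*, *Scgb1a1*, *Marco*, *Chil3*, *Upk3b*, *Wt1*, *Tyr*, *Syk*, *Mcpt2*, *Mrgprb1*, *Tpsab1* and *Alox15* were named for the libraries they describe or after their values were seen. *Tpsb2* and *Prg2* had no promoter in the RefSeq table used here.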

Additional observations from a re-analysis of the deposited data

How the results depend on the processing

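Under every alternative that gave a value, 0 of the 10 genes passed both thresholds in limma with Benjamini-Hochberg adjustment, and 0 did with voom. At an unadjusted p under 0.05 stood 1 gene (*Mcpt4*) in the reported fit and with voom, 2 (*Cpa3* as well) when *Crlf2*-/- replicate 1 was omitted, and 0 with 10 fragments in every library or with any 1 WT library omitted, where *Mcpt4* was not tested. Over all genes, 2 were called, against 6 with no filter, 1 with 10 fragments in every library, 4 with the replicate block, 3 with a mean of 5 fragments per library, 2 with voom and 1 to 14 with 1 library left out, the highest being 14 when *Crlf2*-/- replicate 1 was omitted and 7 when WT replicate 3 was. The block called 0 of the 10 genes. Directions reversed for *Kit* alone of the 5 tested genes, whose log2 fold change ran from -0.16 to 0.12 with 1 library left out. *Mcpt4* ran from -1.30 to -0.31 over all alternatives (adjusted p 0.361 to 0.920) and *Cpa3* from -1.35 to -0.03 (adjusted p 0.570 to 0.9996). The protease sum was 0.252 fragments per 1000000 lower in *Crlf2*-/- hearts than in WT, 1.15 lower without *Crlf2*-/- replicate 1 and 0.239 higher without *Crlf2*-/- replicate 3. Genes too low to measure numbered 5, 7 with 10 fragments in every library, 6 without any 1 WT library and 4 with a mean of 5 fragments. Of 519 values under alternatives, 494 kept their direction and side of the threshold or stayed within the replicate spread, 23 moved and 2 reversed. Depth limits what can be said of 5 of the genes, which rested on fewer than 10 fragments in at least 4 of 6 libraries. The causes of these changes were not tested.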
